A study of Homo sapiens with 6 samples.

Results

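Wnt proteins are secreted lipid-modified ligands, and the genes described here encode the ligands, the machinery that exports them, the receptors that bind them and the first cytoplasmic proteins that the receptors recruit. They were taken from the count tables by symbol. The rule took symbols that begin with WNT, FZD or SFRP and a digit, and in addition LRP5, LRP6, ROR1, ROR2, RYK, PORCN, WLS, DVL1, DVL2 and DVL3. It found 43 of the 28278 symbols. These are 19 ligands, 2 genes of ligand secretion, 10 Frizzled receptors, 2 LRP co-receptors, 3 receptors of the ROR and RYK type, 4 secreted Frizzled-related proteins and 3 Dishevelleds. The antisense symbol FZD10-AS1 and the divergent transcript FZD4-DT were left out. Polyadenylated RNA of RKO cells, an established line from a human colon carcinoma, had been sequenced in 3 libraries labelled GSK3B knockout and 3 labelled GSK3B wild-type, and the series concerns the transcripts that change with the knockout. The labels give no treatment, no method of knockout and no word on clones, pools or cultures. For this reason a p-value here reflects only the spread between these libraries, which may be technical.

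In the canonical branch of the pathway a Wnt ligand joins a Frizzled to LRP5 or LRP6, and Dishevelled is drawn to the receptors. GSK3 then phosphorylates the cytoplasmic tail of the LRP co-receptor, which binds Axin, and beta-catenin is spared from degradation. GSK3B thus works on both sides of the pathway, as a kinase of the destruction complex and of the receptor complex. In the intestine Wnt signals maintain the stem cells of the crypt, and most colon carcinomas carry lesions that turn the pathway on below the receptors. Whether RKO cells carry such a lesion was not examined here.

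The 6 libraries held 32379369 to 33558362 counts each, and levels are given as CPM, counts scaled to the size of the library, in which 1 count was worth 0.0300 to 0.0311. GSK3B itself averaged 46.8 ± 0.789 CPM in knockout and 96.0 ± 4.05 CPM in wild-type libraries (SD, n = 3 each). Reads counted as GSK3B thus remained in the knockout libraries (log2 fold change -1.04 ± 0.05 SE, edgeR quasi-likelihood test, adjusted p = 1.88e-12). Of 12 markers of colon epithelium 5 averaged at least 1 CPM over the 6 libraries, namely KRT8, KRT18, VIL1, CDX2 and EPCAM, while CDH1 was listed at 0. Of these 5 EPCAM fell, to 1.07 ± 0.0394 CPM in knockout, against 3.43 ± 0.951 CPM in wild-type libraries (SD, n = 3 each, log2 fold change -1.68, edgeR, adjusted p = 2.59e-05), and the other 4 did not pass. After a correction for transcript GC content KRT18 was called higher, at 0.16 on the log2 scale (edgeR, adjusted p = 0.00312). The sum over the 12 was 138.8 to 143.7 CPM in knockout and 136.2 to 142.7 CPM in wild-type libraries. The summed level of 10 fibroblast markers was 3.75 to 4.81 CPM in knockout and 5.86 to 10.2 CPM in wild-type libraries, with the highest sum in wild-type replicate 3, at 10.2 CPM against 5.86 and 6.57 CPM in the other wild-type libraries. Of the 3 tested fibroblast markers PDGFRB fell at -1.43 on the log2 scale and kept its call without any 1 library (edgeR, adjusted p = 9.20e-04). COL1A1 was called lower with all libraries at -1.66 (edgeR, adjusted p = 0.0285). It stood at -0.72 without wild-type replicate 3 (adjusted p = 0.389), and it also lost its call without knockout replicate 1, 2 or 3 (adjusted p = 0.122, 0.0860 and 0.0591). ACTA2 did not pass (edgeR, adjusted p = 0.375). The 11 leukocyte markers summed to at most 0.609 CPM in knockout and 0.942 CPM in wild-type libraries, with PTPRC listed at 0. The 8 endothelial markers summed to 108.6 to 112.1 CPM in knockout and 115.6 to 138.5 CPM in wild-type libraries, nearly all of it EGFL7 and highest in wild-type replicate 3, with CDH5 and TEK listed at 0. EGFL7 was called lower at -0.19 (edgeR, adjusted p = 0.0195). It lost its call without knockout replicate 1 or 3 or wild-type replicate 3 (adjusted p = 0.0911, 0.0764 and 0.0528). EGFL7 also did not pass after the GC correction (adjusted p = 0.188). The part of these markers in the results was not tested. Wild-type replicate 3 stood apart in base composition. The median deviation of GC-rich genes minus that of GC-poor genes, on the log2 scale, was 0.24 in this library, against -0.09 to -0.06 in the knockout libraries and -0.05 and 0.04 in the other wild-type libraries. Results are therefore also given without this library and after a correction for transcript GC content.

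Of the 43 genes, 20 passed the filter on low counts and 23 did not. The 20 had at least 33 counts in every library, so none of them passed through 1 group alone. Of the other 23, 11 were listed at 0 in all 6 libraries and 12 had 2 to 32 counts in the 6 libraries together. A 0 was not read as absence, because 7 genes that cells generally use, among them EEF1B2, FBL and NDUFS1, were also listed at 0.

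Among the 20 tested genes 5 changed in the knockout. The receptor gene FZD1, the Dishevelled gene DVL1 and the ligand genes WNT2B and WNT11 fell, and the co-receptor gene LRP6 rose. These 4 lower and 1 higher are 25% of the 20 genes, against 13.5% of all 14409 genes tested called either way, 7.18% called lower and 6.36% called higher. DESeq2 and limma-voom each called 3 of the 20, FZD1 and DVL1 lower and LRP6 higher. Their counts over all genes stayed near the 1951 of edgeR, at 1856 and 1902. The excess of the 20 over all genes was thus smaller there. The median log2 fold change of the 20 was -0.11, beside 0.00 for all tested genes, and 15 of the 20 values were negative. In 10 of the 20 the knockout and wild-type libraries did not overlap, 8 with the knockout lower and 2 with it higher, where 31.3% of all tested genes did not overlap, 15.9% with the knockout lower and 15.4% with it higher. Without adjustment, 6 lower and 3 higher of the 20 had an edgeR p under 0.05, where 28% of all tested genes did, 14.1% lower and 13.9% higher. After the GC correction 6 of the 20 were called, 4 lower and 2 higher, against 21.1% of all genes called, 7.39% lower and 13.7% higher. FZD1, DVL1 and WNT2B remained among the lower genes, RYK joined them, WLS and DVL2 were the higher ones, and WNT11 and LRP6 no longer passed. Leaving out wild-type replicate 3 gave 4 called genes of the 20, FZD1 and DVL1 lower and LRP6 and WLS higher. WNT2B and WNT11 did not pass there (edgeR, adjusted p = 0.0620 and 0.138). In that fit 2046 of all genes were called, 1024 lower and 1022 higher, beside 1951 with all libraries, 1034 lower and 917 higher. The number of genes tested in that fit is not given here. In bulk RNA fewer cells that express a gene and less RNA per cell cannot be told apart.

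**Figure D1:**
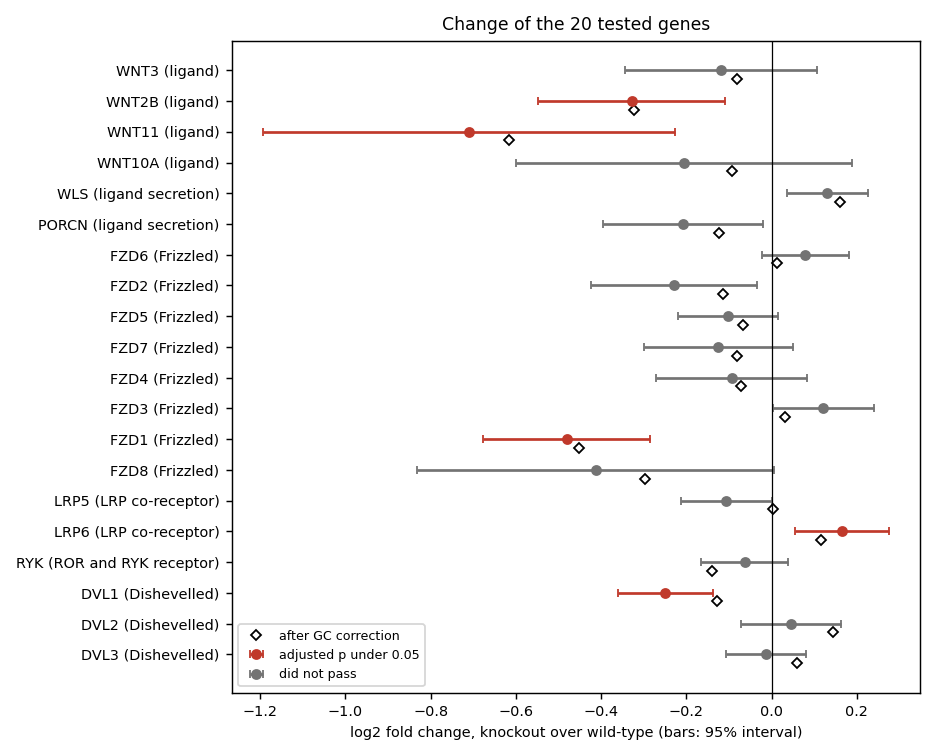
Log2 fold change of the 20 tested genes, knockout over wild-type, with 95% intervals from edgeR (n = 3 libraries per group), grouped by role down the page. Red marks adjusted p under 0.05 and open diamonds the value after GC correction. FZD1 stands at -0.48 before and -0.45 after it, and DVL1 at -0.25 before and -0.13 after it.

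Promoter sequence was at hand for 3 of the 5 changed genes, and these are shown so that the base composition before the starts of 3 genes that fell can be compared. The bases precede the RefSeq transcript start on GRCh38.p14, read 5′ to 3′ on the gene's own strand, and capitals mark GC boxes, the letters GGGCGG on either strand. DVL1 is shown from chr1:1349419-1349668 on the minus strand, WNT2B from chr1:112466291-112466540 on the plus strand and FZD1 from chr7:91264183-91264363 on the plus strand. The last 69 bases before the RefSeq start of FZD1 are not shown, because they lie in an exon of the GENCODE annotation.
DVL1: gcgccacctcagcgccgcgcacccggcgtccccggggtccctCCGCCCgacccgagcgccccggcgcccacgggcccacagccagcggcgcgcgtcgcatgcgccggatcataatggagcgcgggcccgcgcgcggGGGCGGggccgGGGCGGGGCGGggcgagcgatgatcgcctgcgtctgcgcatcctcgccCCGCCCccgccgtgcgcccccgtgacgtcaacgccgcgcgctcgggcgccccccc
WNT2B: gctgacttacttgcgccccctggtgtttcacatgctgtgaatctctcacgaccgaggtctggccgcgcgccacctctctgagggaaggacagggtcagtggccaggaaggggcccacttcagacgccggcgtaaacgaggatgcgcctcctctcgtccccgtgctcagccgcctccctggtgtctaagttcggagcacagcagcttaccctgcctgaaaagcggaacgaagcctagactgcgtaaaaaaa
FZD1: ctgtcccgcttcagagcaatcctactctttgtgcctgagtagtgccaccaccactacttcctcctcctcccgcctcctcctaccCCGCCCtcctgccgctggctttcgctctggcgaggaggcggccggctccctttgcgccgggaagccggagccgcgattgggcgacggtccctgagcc
The DVL1 stretch is 83.2% G and C and holds 5 GC boxes, 2 of them overlapping. The WNT2B stretch is 60.4% G and C and holds 0, and the FZD1 stretch is 67.4% G and C and holds 1. RefSeq promoters were matched for 33 of the 43 genes, in windows of 250 bases before the start. Some of these windows lie within the gene as GENCODE annotates it, among them those of WNT3, WNT5B, WNT10A and WNT16. They were counted untrimmed. For each of the 33 genes 1 window was taken, while all 35116 windows were not reduced to 1 per gene. A GC box lay in 27 of these 33 windows (81.8%) and in 42.6% of all 35116 windows. The letters CTTTGAA or CTTTGAT on either strand, which TCF and LEF factors bind, lay in 0 of the 33 windows and in 5.94% of all windows. The letters CCAAT lay in 14 of the 33 (42.4%) and in 32% of all windows. A match of letters is a description and not a measured binding site. The 14 windows of tested genes had a median of 71.4% G and C, beside 58.0% over all windows.

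Levels of different genes were compared as CPM per kilobase of the longest annotated transcript. In wild-type libraries the gene with the highest level was WLS, which encodes the carrier that takes Wnt ligands to the cell surface, at 32.9 ± 0.807 in knockout and 30.0 ± 0.486 CPM per kilobase in wild-type libraries (SD, n = 3 each). This wild-type level was above that of 83.4% of all tested genes with a transcript length. DVL1, FZD6, DVL2, DVL3, RYK and LRP5 followed, down to 12.8 CPM per kilobase for LRP5 in wild-type libraries. PORCN, FZD2, FZD5, LRP6, FZD7, FZD4 and FZD3 came next, between 7.96 and 3.61 CPM per kilobase in wild-type libraries. The ligands came low in the order, WNT3 at 2.75, WNT2B at 1.16, WNT11 at 1.15 and WNT10A at 1.00 CPM per kilobase in wild-type libraries, with FZD1 at 1.89 between them and FZD8 last at 0.680. The wild-type ranges of WLS and DVL1 overlapped, as did those of FZD6 and DVL2, FZD7 and FZD4, FZD4 and FZD3, WNT2B and WNT11, and WNT11 and WNT10A. All other neighbours in this order were apart. Taking the mean transcript length of each gene in place of the longest raised 14 of these levels and changed the order below WLS, which stayed the highest, and 19 genes reached 1 CPM per kilobase in wild-type libraries by either length.

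**Figure D2:**
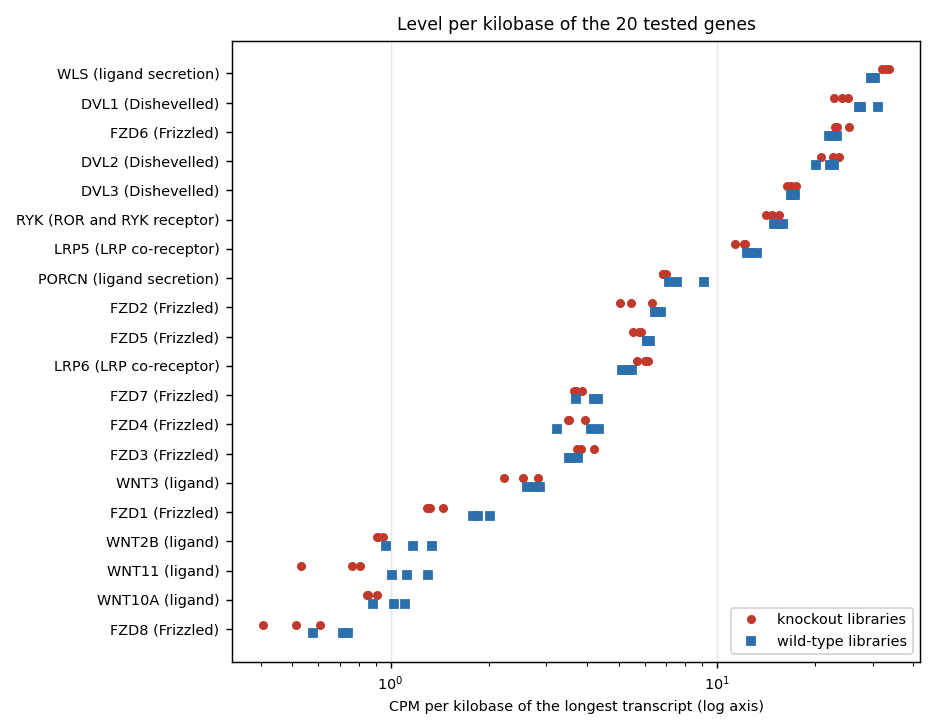
Level of the 20 tested genes in CPM per kilobase of the longest transcript, on a log axis, in each of the 3 knockout libraries (red circles) and 3 wild-type libraries (blue squares). WLS, DVL1 and FZD6 lie at the top, followed by DVL2 and DVL3, and the ligand genes lie near the bottom, and the groups of FZD1 and WNT11 are apart.

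Of 19 ligand genes 4 were tested, and WNT2B and WNT11 fell while WNT3 and WNT10A did not pass. WNT2B, a ligand of the canonical branch, had 9.93, 9.92 and 10.3 CPM in knockout replicates 1 to 3, against 14.6, 10.5 and 12.8 CPM in wild-type replicates 1 to 3. The groups did not overlap, but the lowest wild-type value lay just above the highest knockout value, and the wild-type libraries were the more spread. The level in the knockout was 79.7% of that in wild type (log2 fold change -0.33 ± 0.11 by edgeR's quasi-likelihood test, SE, n = 3 per group, adjusted p = 0.0417). WNT2B no longer passed without knockout replicate 1, 2 or 3 (adjusted p = 0.120, 0.122 and 0.0851) or without wild-type replicate 1 or 3 (adjusted p = 0.178 and 0.0620). It passed without wild-type replicate 2 (adjusted p = 0.0140). The log2 fold change ran from -0.44 without wild-type replicate 2 to -0.22 without wild-type replicate 1, and it did not pass in DESeq2 or limma-voom (adjusted p = 0.0536 and 0.0608).

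WNT2B lies on chromosome 1 from 112466541 to 112530165 (hg38, GENCODE 29, plus strand), and 21.2% of its exon positions are also exons of ST7L on the other strand. The strand setting of the counting is not given in the sources used here, so reads of this pair may not be told apart. ST7L had 14.6, 14.7 and 15.4 CPM in knockout replicates 1 to 3, against 18.8, 15.1 and 15.9 CPM in wild-type replicates 1 to 3. ST7L did not pass (log2 fold change -0.16 ± 0.09 SE, edgeR, adjusted p = 0.265). Both genes had their highest wild-type value in replicate 1 and their lowest in replicate 2. The ratio of WNT2B to ST7L counts was 0.678, 0.676 and 0.669 in knockout libraries and 0.773, 0.698 and 0.804 in wild-type libraries, with no overlap.

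WNT11, a ligand best known for the branch that acts without beta-catenin, was low, with 1.55, 1.03 and 1.47 CPM in knockout replicates 1 to 3, against 1.94, 2.17 and 2.52 CPM in wild-type replicates 1 to 3. The values rest on 51, 33 and 49 counts in knockout and 64, 71 and 84 counts in wild-type libraries. All knockout libraries lay below all wild-type libraries, and the level was 61.2% of that in wild type (log2 fold change -0.71 ± 0.23 by edgeR's quasi-likelihood test, SE, n = 3 per group, adjusted p = 0.0452). This was the largest change in size among the 20 genes, and its 95% interval was also the widest, from -1.19 to -0.23. WNT11 passed without wild-type replicate 1 (adjusted p = 0.0349), but not without knockout replicate 1, 2 or 3 (adjusted p = 0.0703, 0.210 and 0.0759) or wild-type replicate 2 or 3 (adjusted p = 0.111 and 0.138). It also did not pass after the GC correction, at -0.61 (adjusted p = 0.0579), or in DESeq2 or limma-voom (adjusted p = 0.0627 and 0.0503). WNT11 spans 76186325 to 76210736 of chromosome 11, minus strand, and 8.5% of its exon positions are shared with the antisense gene AP000785.1.

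WNT3, the ligand with the highest level per kilobase and one that activates the canonical branch in the intestinal crypt, had 7.46, 8.52 and 9.50 CPM in knockout replicates 1 to 3, against 9.27, 9.63 and 8.77 CPM in wild-type replicates 1 to 3. The groups overlapped (log2 fold change -0.12 ± 0.11 SE, edgeR, adjusted p = 0.523). WNT10A, another canonical ligand, averaged 2.22 ± 0.0839 CPM in knockout and 2.56 ± 0.284 CPM in wild-type libraries (SD, n = 3 each) and did not pass (edgeR, adjusted p = 0.526). Summed over all 19 ligand genes, the libraries held 21.5, 22.5 and 24.0 CPM in the knockout, against 29.1, 26.1 and 27.1 CPM in wild type. Every knockout sum lay below every wild-type sum, and WNT2B and WNT3 made up most of each. The called genes WNT2B and WNT11 are part of these sums, so the sums are no separate result. Sums of the Dishevelled genes were also apart, at 235 to 237 CPM in knockout and 241 to 262 CPM in wild-type libraries. Those of the other roles overlapped.

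Of the 15 ligand genes that were not tested, 5 were listed at 0 throughout, namely WNT1, WNT3A, WNT5A, WNT6 and WNT8A. The other 10 stayed at or under 0.390 CPM in each library. WNT5B, a ligand of the branch that acts without beta-catenin, had 0, 2 and 4 counts in knockout replicates 1 to 3, against 4, 6 and 13 counts in wild-type replicates 1 to 3. WNT4 had 2, 4 and 3 counts in knockout, against 8, 10 and 5 counts in wild-type libraries. These 2 genes, named after their values were seen, were the untested ligands whose scaled values did not overlap, and in WNT5B the highest knockout and lowest wild-type libraries had the same raw count. WNT10B had its 8 counts in wild-type replicate 2 alone, and WNT2, WNT7A and WNT9B had counts in knockout libraries only, at most 3 in a library. Counts this small carry no comparison between the groups.

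PORCN, the acyltransferase that attaches the lipid a Wnt ligand needs, had 14.7, 14.5 and 14.5 CPM in knockout replicates 1 to 3, against 16.0, 15.1 and 19.3 CPM in wild-type replicates 1 to 3. It was lower in all knockout libraries but did not pass (log2 fold change -0.21 ± 0.09 SE, edgeR, adjusted p = 0.134), and without wild-type replicate 3 the value was -0.09. WLS had 92.6, 90.4 and 88.1 CPM in knockout replicates 1 to 3, against 81.8, 81.7 and 84.1 CPM in wild-type replicates 1 to 3. It was higher in all knockout libraries, at a log2 fold change of 0.13 ± 0.05 (SE), and did not pass with all libraries (edgeR, adjusted p = 0.0584). WLS did pass without wild-type replicate 3 (log2 fold change 0.14, adjusted p = 0.0167) and after the GC correction (log2 fold change 0.16, adjusted p = 0.00262).

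Of 10 Frizzled genes 8 were tested, FZD1 fell, and the other 7 did not pass. The Frizzleds are membrane receptors with a cysteine-rich outer domain that binds the lipid of the ligand. FZD1 had 9.20, 10.1 and 8.98 CPM in knockout replicates 1 to 3, against 12.5, 14.1 and 12.9 CPM in wild-type replicates 1 to 3. The groups were well apart, with the knockout at 71.7% of wild type (log2 fold change -0.48 ± 0.10 by edgeR's quasi-likelihood test, SE, n = 3 per group, adjusted p = 0.00133). FZD1 passed under all 16 alternatives tried, with adjusted p from 7.06e-05 to 0.0185 and log2 fold changes from -0.53 to -0.43. Without wild-type replicate 3 the value was -0.49 (adjusted p = 0.00114). FZD1 lies on chromosome 7 from 91264364 to 91271326 on the plus strand and shares no exon positions with another annotated gene.

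FZD6, the Frizzled with the highest level per kilobase, had 88.4, 96.5 and 87.1 CPM in knockout replicates 1 to 3, against 88.3, 85.6 and 83.5 CPM in wild-type replicates 1 to 3. The groups overlapped (log2 fold change 0.08 ± 0.05 SE, edgeR, adjusted p = 0.311). FZD6 made up 49.4% of the summed Frizzled level per kilobase in knockout and 45.7% in wild-type libraries, and FZD1 made up 2.79% and 3.81%. The sum takes FZD9 and FZD10 at their listed 0, which was not read as absence, and uses the longest transcripts. The ratio of FZD1 counts to those of the other 7 tested Frizzleds was 0.0392, 0.0403 and 0.0390 in knockout and 0.0507, 0.0610 and 0.0545 in wild-type libraries. FZD2 and FZD7, the closest relatives of FZD1, had log2 fold changes of -0.23 and -0.12 and did not pass (edgeR, adjusted p = 0.111 and 0.361). FZD2 had 10.7, 13.4 and 11.5 CPM in knockout, against 14.2, 13.6 and 13.8 CPM in wild-type libraries, with the second knockout value close to the wild-type range. How reads that match several Frizzled genes were counted is not given in the sources used here.

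FZD3 stood at 0.12 and FZD5 at -0.10 on the log2 scale, with 95% intervals of 0.00 to 0.24 and -0.22 to 0.02 (edgeR, adjusted p = 0.170 and 0.253). FZD4, a receptor for norrin as well as Wnt ligands, stood at -0.09 (edgeR, adjusted p = 0.520), and 18.9% of its exon positions are exons of PRSS23 on the other strand. FZD8 was low, at 2.06 ± 0.406 CPM in knockout and 2.74 ± 0.351 CPM in wild-type libraries (SD, n = 3 each). Its log2 fold change of -0.41 ± 0.20 (SE) was near that of FZD1 in size, but its 95% interval of -0.83 to 0.01 included no change (edgeR, adjusted p = 0.186). FZD9 and FZD10 were listed at 0 in all libraries.

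Secreted Frizzled-related proteins bind Wnt ligands outside the cell and act mostly as inhibitors, and the symbol rule found 4 of their genes. SFRP2, SFRP4 and SFRP5 were listed at 0, and SFRP1 had 3 counts in wild-type replicate 3 and 0 in the other libraries.

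**Figure D3:**
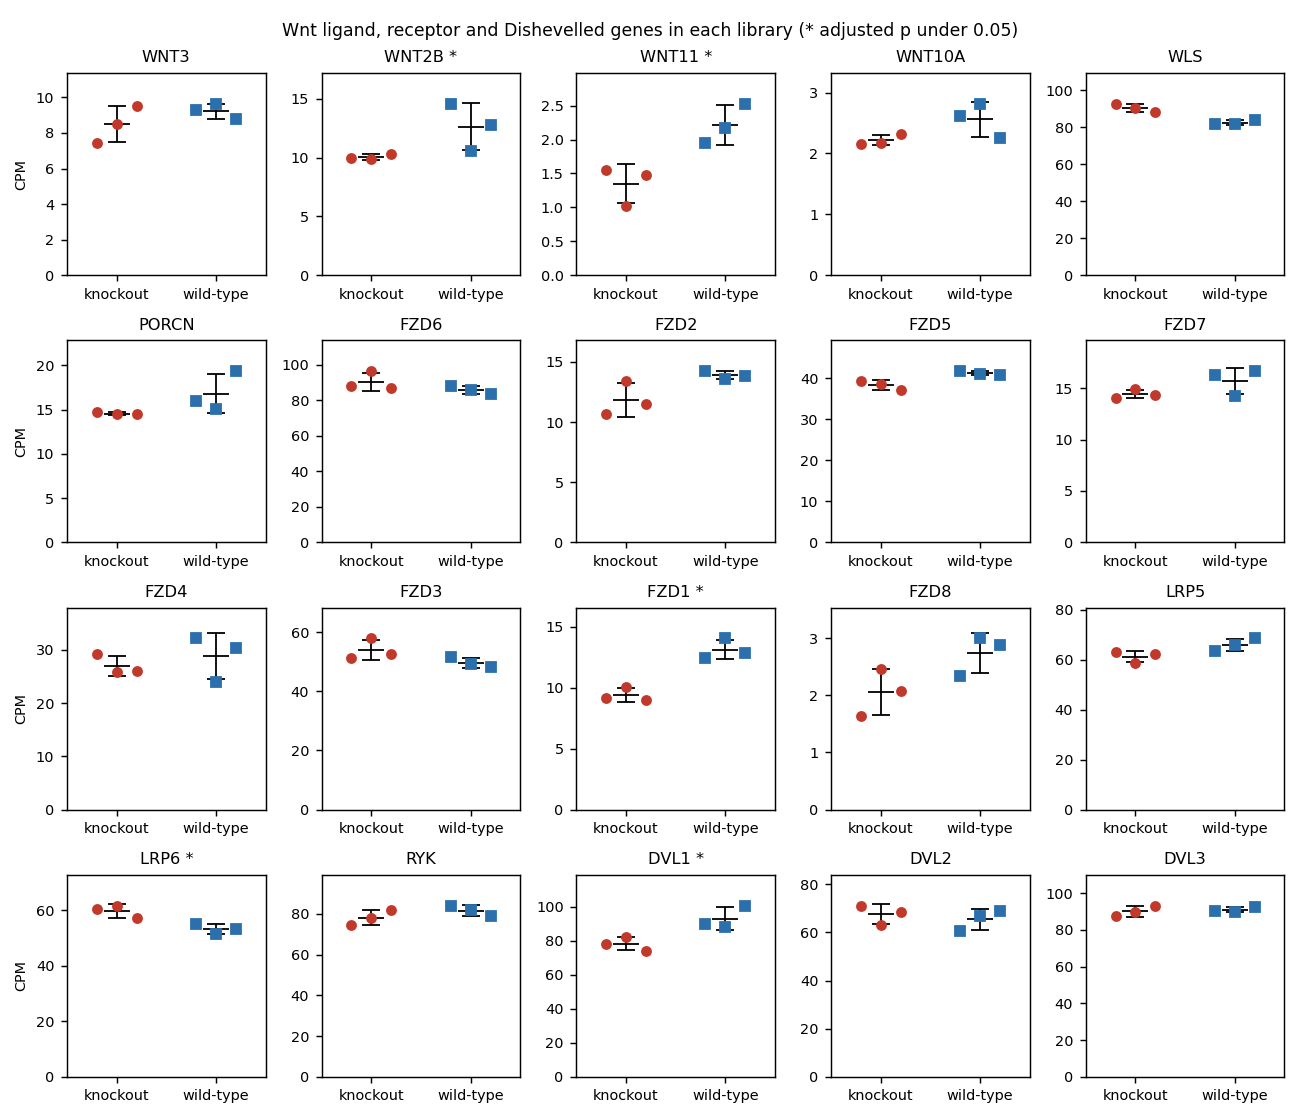
CPM of the 20 tested genes in each library, with the 3 knockout libraries (red circles) left of the 3 wild-type libraries (blue squares) and black marks for the mean ± SD. Each axis starts at 0. FZD1 and DVL1 show separate groups, WNT2B groups that nearly meet, and WNT3 groups that overlap.

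The co-receptors LRP5 and LRP6, single-pass membrane proteins whose tails carry the sites that GSK3 phosphorylates, stood on different sides. LRP6 had 60.5, 61.6 and 57.0 CPM in knockout replicates 1 to 3, against 55.0, 51.4 and 53.4 CPM in wild-type replicates 1 to 3. All knockout values lay above all wild-type values, at 112% of wild type (log2 fold change 0.17 ± 0.05 by edgeR's quasi-likelihood test, SE, n = 3 per group, adjusted p = 0.0410). LRP5 had 63.0, 58.7 and 62.3 CPM in knockout replicates 1 to 3, against 63.6, 65.9 and 68.6 CPM in wild-type replicates 1 to 3. Its values were lower in each knockout library and did not pass (log2 fold change -0.11 ± 0.05 SE, 95% interval -0.21 to 0.00, edgeR, adjusted p = 0.178). The ratio of LRP6 to LRP5 counts was 0.960, 1.05 and 0.915 in knockout libraries and 0.864, 0.780 and 0.778 in wild-type libraries. The ratios did not overlap (exact permutation, two-sided, p = 0.1, and 3 against 3 libraries allow no smaller one).

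The LRP6 transcript has 40.2% G and C and the LRP5 transcript 62.8%, and over all genes the change moved with GC content in the same direction as between these 2. After the GC correction LRP6 stood at 0.12 (edgeR, adjusted p = 0.0706) and LRP5 at 0.00, where it did not pass. LRP6 also did not pass with scaling by library size alone (adjusted p = 0.0728) or without knockout replicate 1 or 2 or wild-type replicate 2 (adjusted p = 0.148, 0.206 and 0.179). It passed without knockout replicate 3 or wild-type replicate 1 or 3 (adjusted p = 0.0467, 0.0227 and 0.0277). LRP6 spans 12116025 to 12267012 of chromosome 12, minus strand.

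RYK, an atypical receptor kinase that binds Wnt ligands, had 74.6, 77.7 and 81.9 CPM in knockout replicates 1 to 3, against 84.1, 81.7 and 78.9 CPM in wild-type replicates 1 to 3. The groups overlapped and RYK did not pass (log2 fold change -0.06 ± 0.05 SE, edgeR, adjusted p = 0.440). Its transcript is poor in G and C, at 36.8%, and after the GC correction it was called lower at -0.14 (edgeR, adjusted p = 0.0155). ROR2 was listed at 0, and ROR1, a receptor for Wnt5a-type ligands, had 1 count in knockout and 8 counts in wild-type libraries, 7 of them in replicate 2.

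The Dishevelled genes encode scaffold proteins that carry the signal from the receptors inward, and DVL1 alone of the 3 changed with all libraries. DVL1 had 78.3, 81.9 and 74.1 CPM in knockout replicates 1 to 3, against 89.6, 88.2 and 101 CPM in wild-type replicates 1 to 3. All knockout values lay below all wild-type values, and the level was 84.1% of that in wild type (log2 fold change -0.25 ± 0.05 by edgeR's quasi-likelihood test, SE, n = 3 per group, adjusted p = 0.00306). Wild-type replicate 3 had the highest value, and without it the log2 fold change was -0.19 (adjusted p = 0.00425). DVL1 passed under all 16 alternatives, with adjusted p from 2.43e-05 to 0.0347. Its transcript has 67.2% G and C, and the GC correction brought it to -0.13 ± 0.04 (SE, adjusted p = 0.0162). DVL1 spans 1335276 to 1349350 of chromosome 1, minus strand.

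DVL2 averaged 67.6 ± 4.13 CPM in knockout and 65.5 ± 4.40 CPM in wild-type libraries, and DVL3 90.2 ± 2.95 and 91.0 ± 1.38 CPM (SD, n = 3 each). Neither passed (edgeR, adjusted p = 0.655 and 0.892), with 95% intervals of -0.07 to 0.16 and -0.11 to 0.08 on the log2 scale. After the GC correction DVL2 was called higher at 0.14 (edgeR, adjusted p = 0.0188). The ratio of DVL1 counts to those of DVL2 and DVL3 together was 0.494, 0.535 and 0.458 in knockout libraries and 0.593, 0.563 and 0.623 in wild-type libraries, with no overlap (two-sided exact permutation test, p = 0.1, the smallest possible). The 4 ratios of counts given here were chosen after the values were seen, and each sets a called gene over others, so they are no separate result. Each had an exact permutation p of 0.1, also after Benjamini-Hochberg adjustment over the 4, which does not account for that choice.

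**Figure D4:**
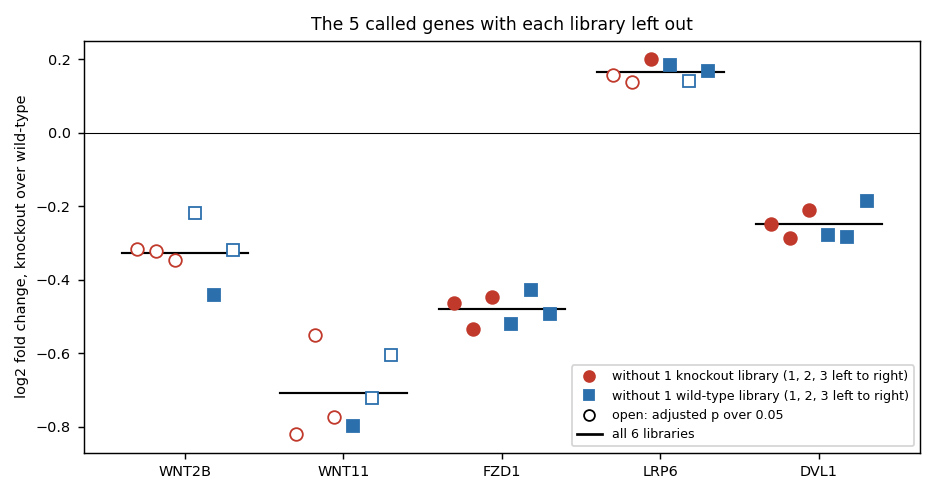
Log2 fold change, knockout over wild-type, of the 5 changed genes when each library is left out in turn, with lines at the value from all 6 libraries. Filled symbols have an adjusted p under 0.05, which FZD1 and DVL1 keep in all 6 fits, LRP6 in 3, and WNT2B and WNT11 in 1 each.

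GC content moved with the result across all genes. In the quintile of genes poorest in G and C the median log2 fold change was 0.08 and 14% were called higher and 2.17% lower, and in the richest quintile the median was -0.07 and 1.45% were called higher and 13.1% lower. Across the 20 genes the log2 fold change and transcript GC content had a Pearson correlation of -0.47 and a Spearman correlation of -0.54, and of -0.18 and -0.24 after the correction. These 20 points share the same 6 libraries, so the values are a description. FZD1 and WNT2B, at 47.7% and 44.6% G and C, lay below the median of genes of like GC content, which was -0.00 for FZD1's quintile and 0.03 for that of WNT2B. DVL1 and WNT11, at 67.2% and 59.5%, also lay below the median of their quintile, -0.07. LRP6, at 40.2%, lay above that of its own, 0.08. These 5 genes were already called in those directions, so their side of the median is no separate result.

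**Figure D5:**
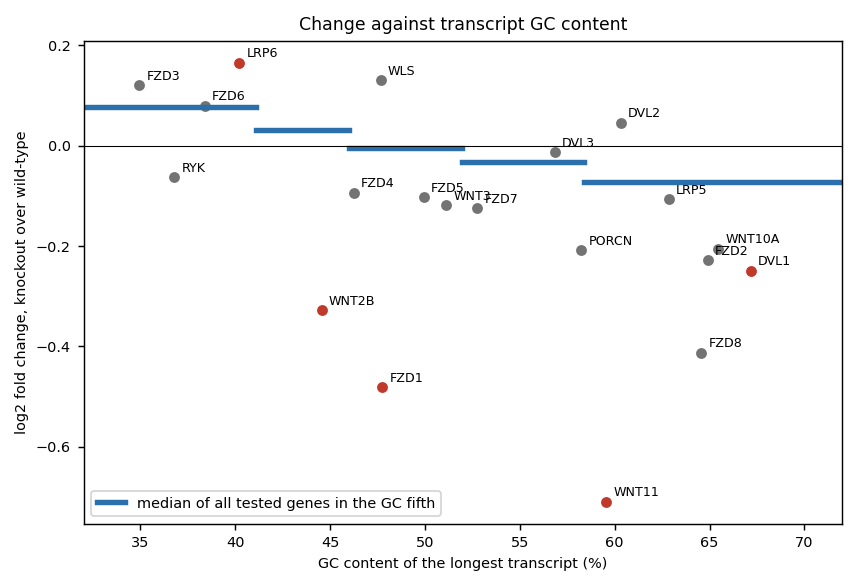
Log2 fold change, knockout over wild-type, against GC content of the longest transcript for the 20 tested genes (red, adjusted p under 0.05, grey otherwise). Blue lines give the median of all tested genes in each GC quintile, drawn within the axis limits, and run from 0.08 in the poorest to -0.07 in the richest quintile.

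Other genes of the pathway were read from 6 lists with 131 genes in all, of which 93 were tested, 4 rose, 13 fell and 76 did not pass. This is 18.3% called, against 13.5% of all genes tested, 6.36% called higher and 7.18% called lower. The 13 that fell include GSK3B, the gene named in the knockout labels. The counts of each list below stand against the same shares over all genes. Among 5 tested genes of extracellular modulators NOTUM, an enzyme that removes the lipid from Wnt ligands, fell to 1.31 ± 0.243 CPM in knockout, against 2.13 ± 0.304 CPM in wild-type libraries (edgeR, adjusted p = 0.0497), and the other 4 did not pass. NOTUM lost its call without any 1 of the 6 libraries, with adjusted p from 0.0600 to 0.168, and after the GC correction, at -0.58 (adjusted p = 0.0797). It also did not pass in DESeq2, in limma-voom, without the robust option or with the replicate block (adjusted p = 0.0715, 0.0560, 0.0531 and 0.0514). The list had a median log2 fold change of -0.07. Of 11 tested genes of receptor turnover and accessory proteins 2 fell and 9 did not pass. They were TSPAN12, a tetraspanin that assists FZD4, at 3.69 ± 0.726 CPM in knockout and 6.11 ± 0.347 CPM in wild-type libraries (log2 fold change -0.73 ± 0.15 SE), and KREMEN1, a DKK receptor, at -0.30 ± 0.06 (SE). Their adjusted p-values in edgeR were 0.00158 and 0.00194, and both kept their calls without any 1 library. The list had a median log2 fold change of -0.04.

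Of 9 tested genes of ligand sorting TMED5, a cargo receptor of the early secretory pathway, rose to 216 ± 13.2 CPM in knockout, against 183 ± 5.97 CPM in wild-type libraries (log2 fold change 0.24 ± 0.04 SE, edgeR, adjusted p = 6.56e-04). TMED5 kept its call without any 1 library, the other 8 did not pass, and the list's median was 0.04. Of 14 tested Dishevelled partners 3 fell and 11 did not pass, with NKD2 and NKD1, which bind Dishevelled and restrain the signal, at -0.33 and -0.32, and the kinase gene CSNK1E at -0.20 on the log2 scale (edgeR, adjusted p = 0.0207, 0.00666 and 0.00299). The list's median was -0.12, and NKD2 lost its call without knockout replicate 1 or 3 or wild-type replicate 2, with adjusted p up to 0.0893, and after the GC correction, at -0.21 (adjusted p = 0.111). The GC correction brought CSNK1E to -0.12 (adjusted p = 0.00619). Of 26 genes of planar polarity and Wnt/calcium signalling 2 fell, PRKCA at -0.62 and the cadherin gene CELSR2 at -0.21, and 2 rose, the kinase gene ROCK2 at 0.18 and the calcineurin subunit gene PPP3R1 at 0.16 (edgeR, adjusted p = 0.0295, 0.00547, 0.0352 and 0.0236). The list's median was -0.04, and the GC correction brought CELSR2 to -0.12 (adjusted p = 0.0359). PRKCA and PPP3R1 lost their calls without knockout replicate 2 or 3 or wild-type replicate 2, with adjusted p up to 0.156 and 0.179, and ROCK2 kept its call only without wild-type replicate 1, with adjusted p otherwise up to 0.212.

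Of 28 canonical components inside the cell 5 fell and 1 rose, and besides GSK3B the largest changes were those of AXIN2, TNKS2 and CTNNBIP1, at -0.59, -0.40 and -0.35 on the log2 scale (edgeR, adjusted p = 0.0165, 7.05e-05 and 0.0181). AXIN2 is a feedback target of the pathway, TNKS2 a tankyrase that marks Axin for degradation and CTNNBIP1 an inhibitor of beta-catenin. TNKS2 kept its call without any 1 library. AXIN2 lost it without knockout replicate 3 or wild-type replicate 2, with adjusted p up to 0.113 and log2 fold changes from -0.71 to -0.40. CTNNBIP1 lost it without knockout replicate 2 or 3 or wild-type replicate 3, with adjusted p up to 0.0984 and values from -0.44 to -0.23. The list's median was -0.05. After the GC correction 11 of the 93 genes were higher and 16 lower, where 13.7% of all tested genes were higher and 7.39% lower.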

How the data were processed

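Each library has 1 deposited table of raw counts by gene symbol, whole numbers that were not normalized. Per the labels' protocols, polyadenylated RNA was extracted with TRIzol, made into libraries with a VAHTS Universal kit and sequenced as paired-end reads of 150 bp. Per the submitters' processing notes TopHat, edgeR and limma were used with hg38, with no roles or versions. The counting program, its strand setting and its handling of multiply matching reads were not given in the labels.

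Groups came from the sample titles. Within groups the chi-square of the counts per degree of freedom was 3.17 to 9.71 for each pair, so all pairs differed by more than sampling noise and each library was kept as 1 replicate. The test was that of edgeR 4.0.16 in R 4.3.3: filterByExpr (minimum count 10, minimum total 15), TMM scaling, a robust quasi-likelihood fit with group as its only term, and Benjamini-Hochberg adjustment over all 14409 tested genes, threshold 0.05. CPM values carry the TMM scaling, and SEs come from each fold change with its F statistic. The GC correction enters as an offset, in each library, a spline (5 degrees of freedom) of each gene's deviation from its mean log2 CPM on the GC content of the longest transcript, known for 95.9% of tested genes. Symbols were matched to GENCODE 29 (26216 of 28278). Promoter sequences are from RefSeq on GRCh38.p14. Further alternatives were RLE scaling, library size alone, 2 other filters, DESeq2 1.42.0, limma-voom (limma 3.58.1), no robust option, the replicate block and leaving out each library. The tests were checked on simulated counts.

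The genes and lists were chosen with earlier results of these data known. Values in each library were given to each gene called, to the gene with the highest level per kilobase of each role and to LRP5 and LRP6, and from the other lists up to 4 called genes with the largest change were named. A few more genes are given in the same detail.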

Additional observations from a re-analysis of the deposited data

How the results depend on the processing

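The count of all genes called, 1951, was 3045 after the GC correction (1980 higher, 1065 lower) and 3060 with that correction and the replicate block, and ranged over 950 to 2531 in the fits without 1 library. The 2531 came without wild-type replicate 1, and leaving out wild-type replicate 2 or knockout replicate 1, 2 or 3 gave 1072, 1094, 950 and 1205. Of the 20 genes, 5 were called with all libraries, 3 in DESeq2, 3 in limma-voom, 6 after the GC correction and 2 to 4 without 1 library. Over all genes DESeq2 called 1856 and limma-voom 1902, beside the 1951. From the other pathway lists 17 were called, 27 after the GC correction, 26 with that correction and the replicate block, and 9 to 21 without 1 library. GSK3B is in each of these counts. With library size alone 649 genes were higher and 1229 lower, beside 917 and 1034. GSK3B kept its call in the 16 alternatives. Over 320 values of single genes among the 20 and an alternative, 22 called values were no longer past the threshold, 7 values came to pass it, and 0 of the called values changed sign. Same-numbered libraries had correlations of deviations from the group means of 0.0709, -0.00406 and 0.0306, and differently numbered ones -0.0878 to 0.0599. These values do not settle whether the replicate numbers pair the libraries. With the replicate number as a block 2193 genes were called, and 5 of the 20 genes. The cause of these shifts was not tested. Among the 20 genes the fewest counts in a library were the 33 of WNT11, and the 23 untested genes had at most 13.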
